A study of Mus musculus with 12 samples.

Results

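Ephrins and Eph receptors of the mouse upper jaw were followed as 10 genes: the ephrin ligands Efnb1, Efnb2 and Efna5, the B-class receptors Ephb1, Ephb2, Ephb3 and Ephb4, and the A-class receptors Epha3, Epha4 and Epha7. They were taken by symbol from deposited gene tables of 53392 genes, and all 10 were found. The study sequenced polyadenylated RNA from 12 libraries of 129S4 mouse embryos in 4 groups of 3, which its design text calls biological replicates. Palatal shelves of embryonic day E13.5, the paired outgrowths that become the secondary palate, came from Pdgfra+/+ embryos (palatal WT) and from PdgfraPI3K/PI3K embryos (palatal PI3K). Maxillary processes of embryonic day E11.5, from which the shelves later grow out, came from Srsf3fl/fl;Wnt1-Cre+/+ embryos, here the maxillary control, and from Srsf3fl/fl;Wnt1-Cre+/Tg embryos, labelled Srsf3 conditional knockout (cKO). Ectoderm was digested off both tissues with trypsin. PdgfraPI3K is a knock-in allele of the PDGF receptor alpha that cannot bind phosphoinositide 3-kinase. Both maxillary groups carry the floxed Srsf3 allele, which encodes a splicing factor. Wnt1-Cre acts in the neural crest lineage, and the blood vessels, blood and muscle of the process lie outside that lineage. The labels do not say how many embryos went into a library.

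Eph receptors are receptor tyrosine kinases that bind ephrins held on the surface of neighbouring cells, and both partners signal on contact: forward through the receptor and in reverse through the ephrin. A-class ephrins sit on a lipid anchor and B-class ephrins cross the membrane. EphA4 can bind ephrins of both classes. In the embryonic face these contacts keep cells of different identity apart and guide neural crest cells, and loss of ephrin-B1, an X-linked gene, causes craniofrontonasal syndrome in people and cleft palate in mice. Ephrin-B2 and EphB4 also mark arterial and venous endothelium.

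Library totals were 30.5 M to 37.4 M estimated counts in the palatal groups and 15.9 M to 27.9 M in the maxillary groups. The Srsf3 total overlapped between the maxillary groups, with a log2 difference of 0.03 that turned to -0.16 on log2(TPM + 1): its normalised counts (CPM, scaled to the library total) were 597, 578 and 547 in the control and 468, 669 and 622 in the labelled cKO. Those libraries are therefore named by their label throughout. Gene totals cannot show a loss of a few exons. Pdgfra was at 503, 470 and 501 CPM in palatal WT and 452, 480 and 561 CPM in palatal PI3K, overlapping in normalised counts. In TPM it was at 139.8, 130.3 and 145 in palatal WT and 186, 200.5 and 243 in palatal PI3K, without overlap. TPM divides by effective length, and the effective length of Pdgfra was shorter in palatal PI3K (values with the transcript lengths). Sums of marker genes in TPM (a level per transcript length, scaled to the same sum in each library) were checked against the tissue labels. The 20 mesenchyme markers summed to 5120 to 6225 TPM in the palatal and 2349 to 4159 TPM in the maxillary libraries. The most abundant of them, Col3a1 and Col1a1, were at 1751 to 1755 and 706 to 2163 TPM in palatal WT. They were at 356 to 685 and 69.6 to 303 TPM in the maxillary control. In normalised counts only 7 of the 20 markers were higher in palatal WT than in the maxillary control, and 13 were lower. The 14 ectoderm markers summed to 404 to 966 TPM in the palatal libraries, and to 1.91 to 18.9 TPM in the maxillary ones, where Krt6a was at 0. Markers of osteogenic and chondrogenic cells differed widely within the palatal groups, at 1773, 261 and 419 TPM in palatal WT and 1025, 442 and 505 TPM in palatal PI3K. In such bulk samples, fewer cells of a type and less RNA per cell cannot be told apart.

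**Figure D1:**
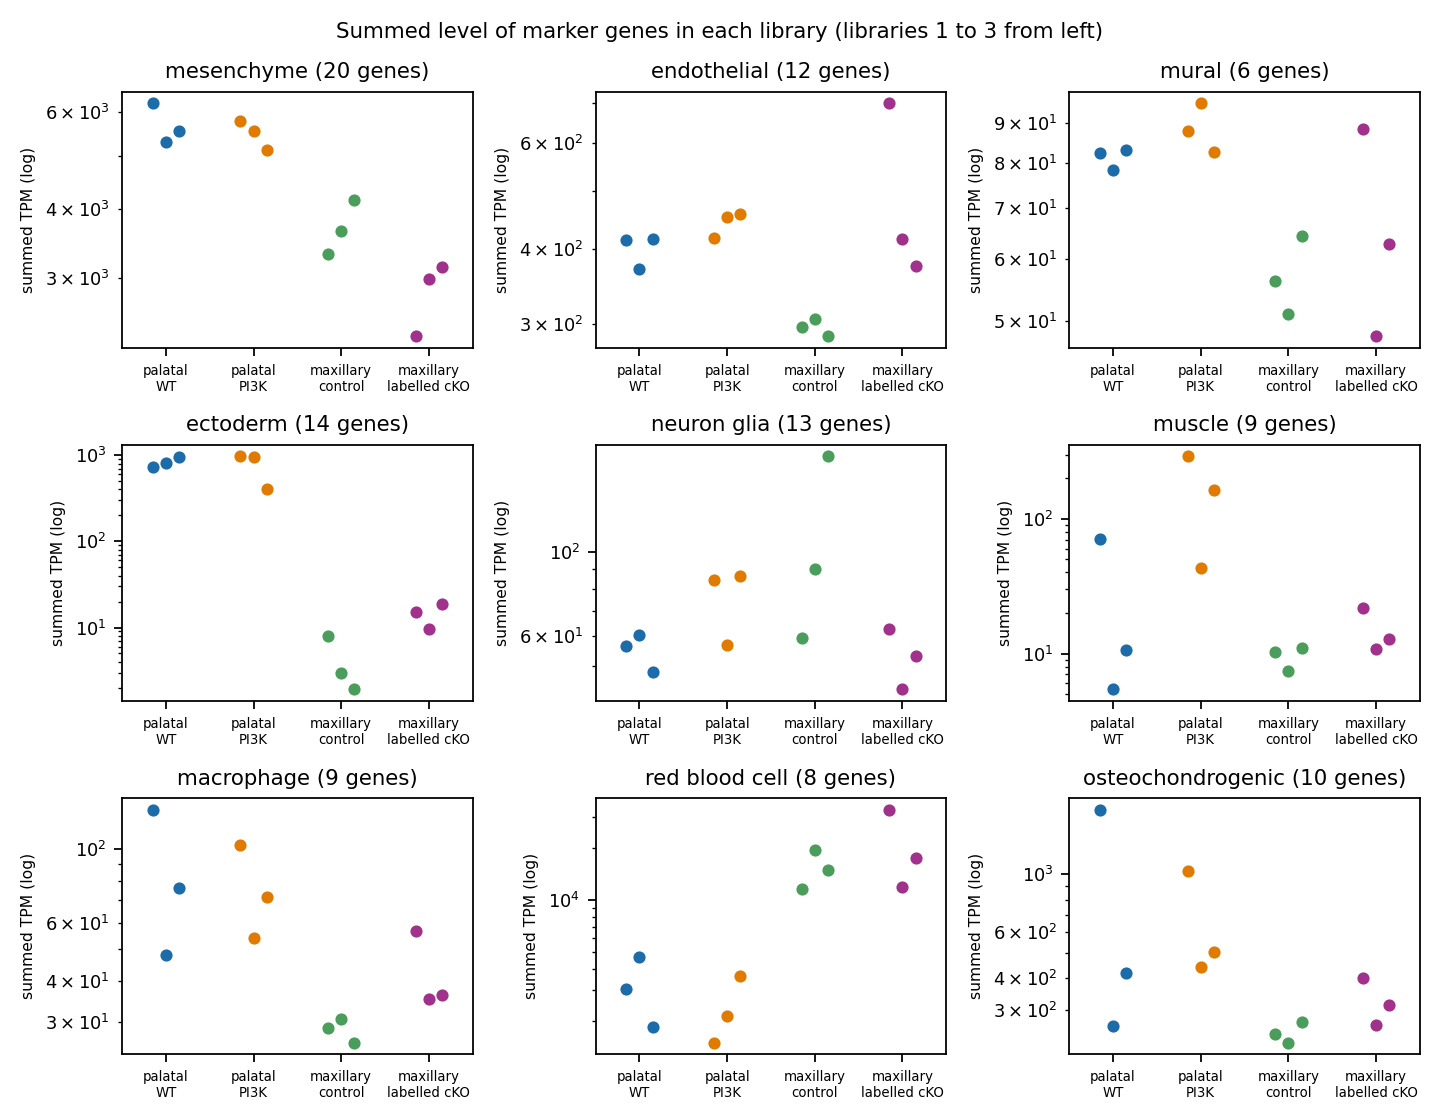
Summed TPM (log axis) of 9 marker lists in each of the 12 libraries, with libraries 1 to 3 from left to right within each group. The ectoderm panel shows the palatal libraries at 404 to 966 TPM and the maxillary libraries at 1.91 to 18.9 TPM. The endothelial panel shows the labelled cKO libraries at 375 to 699 TPM, above the control libraries at 286 to 305 TPM.

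Among the 10 genes, the receptors Ephb1, Epha3 and Epha4 had the largest log2 differences between the maxillary groups. The 250 bases before their start sites are therefore printed, from RefSeq on GRCm38.p6, 5′ to 3′ along the strand of the gene. Capitals mark matches on either strand to 3 core promoter motifs, of which no matches overlapped in these windows: TATAAA as the core of the TATA box, the pentamer CCAAT that names its box, and the GC box searched as GGGCGG.
Ephb1, chr9:102354694-102354943, minus strand: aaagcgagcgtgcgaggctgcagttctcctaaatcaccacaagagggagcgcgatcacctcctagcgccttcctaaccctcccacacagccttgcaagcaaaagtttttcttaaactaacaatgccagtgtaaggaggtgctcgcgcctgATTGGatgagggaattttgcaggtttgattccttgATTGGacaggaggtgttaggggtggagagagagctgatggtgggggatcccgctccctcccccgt
Epha3, chr16:63864176-63864425, minus strand: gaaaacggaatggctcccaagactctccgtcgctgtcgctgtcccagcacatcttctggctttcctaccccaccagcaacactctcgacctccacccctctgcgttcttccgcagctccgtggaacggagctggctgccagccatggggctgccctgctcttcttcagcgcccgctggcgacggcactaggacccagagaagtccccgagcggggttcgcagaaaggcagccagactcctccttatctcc
Epha4, chr1:77515089-77515338, minus strand: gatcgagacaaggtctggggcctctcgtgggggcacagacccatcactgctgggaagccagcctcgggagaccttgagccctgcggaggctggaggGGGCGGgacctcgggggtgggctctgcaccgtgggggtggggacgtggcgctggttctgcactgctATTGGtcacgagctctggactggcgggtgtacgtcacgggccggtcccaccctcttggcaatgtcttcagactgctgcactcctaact
The Ephb1 window held 2 CCAAT boxes, the Epha4 window 1 CCAAT box and 1 GC box, and the Epha3 window none of the 3 motifs. Among 32851 RefSeq windows of this length, 33.8% held a CCAAT box, 32.7% a GC box and 12.4% a TATA box. All 10 genes had an entry, in 11 windows because Epha7 has 2 starts. The 2 Epha7 windows overlap and share a CCAAT box and a GC box, which are counted in both. Of the 11 windows, 8 held a CCAAT box, 7 a GC box and 1 a TATA box, that of Efnb2. Their GC content was 54% to 74.8%, against a median of 52.4% over all windows. These matches describe the letters only.

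The 3 ephrins were well above the detection limit in every library and were higher in the palatal than in the maxillary libraries. Efnb1, on chromosome X, was at 122, 135 and 141 TPM in palatal WT, 123, 147 and 123 TPM in palatal PI3K, 66.4, 71.8 and 94.3 TPM in the maxillary control and 62.1, 47.0 and 62.5 TPM in the labelled cKO. Efnb2, on chromosome 8, was at 52.5, 53.9 and 59.0 TPM in palatal WT, 57.3, 63.8 and 58.0 TPM in palatal PI3K, 31.6, 39.5 and 35.4 TPM in the control and 43.8, 44.6 and 39.5 TPM in the labelled cKO. Efna5, the only A-class ephrin among the 10, on chromosome 17, was at 58.3, 49.0 and 55.9 TPM in palatal WT, 47.3, 59.9 and 53.8 TPM in palatal PI3K, 26.9, 30.1 and 37.4 TPM in the control and 29.1, 24.4 and 30.0 TPM in the labelled cKO. For each ephrin, the lowest palatal library was above the highest maxillary one. The control and labelled cKO ranges of Efna5 overlapped, while those of Efnb1 did not. The highest control library and the lowest labelled cKO library of Efnb2 were both at 39.5 TPM.

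Among the B-class receptors, 3 were abundant in all 12 libraries and 1, Ephb1, was close to absent from the maxillary control. Ephb1 lies at chr9:101922128-102354693 on the minus strand (GRCm38, GENCODE M21). It was at 9.74, 8.71 and 8.26 TPM in palatal WT, 8.81, 7.69 and 9.20 TPM in palatal PI3K, 0.222, 0.142 and 0.292 TPM in the control and 2.69, 1.65 and 0.992 TPM in the labelled cKO. The control values rest on 10, 6 and 17 estimated counts and the labelled cKO values on 149, 128 and 51. The 4 groups of Ephb1 fell into 3 separate levels, with the labelled cKO between the control and the palatal libraries. The annotation places 3 other genes on the same strand and 6 on the opposite strand within its span, and whether the counting used strand is not given in the sources used here.

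Ephb2, which binds B-class ephrins and ephrin-A5, was at 69.7, 65.2 and 70.0 TPM in palatal WT, 70.9, 81.5 and 72.8 TPM in palatal PI3K, 41.4, 41.5 and 50.5 TPM in the control and 35.5, 39.3 and 39.9 TPM in the labelled cKO. Ephb3, which acts beside Ephb2 in palate formation, was at 63.9, 77.9 and 71.6 TPM in palatal WT, 66.5, 83.9 and 94.3 TPM in palatal PI3K, 62.3, 69.2 and 86.3 TPM in the control and 61.5, 54.9 and 60.8 TPM in the labelled cKO. Ephb2 followed the ephrins in being higher in all 6 palatal libraries than in any maxillary one, and Ephb3 did not. Ephb4, the venous receptor of ephrin-B2, was at 132, 145 and 151 TPM in palatal WT, 138, 115 and 154 TPM in palatal PI3K, 117, 128 and 143 TPM in the control and 140.2, 111 and 118 TPM in the labelled cKO. Its 4 ranges all overlapped. It lies partly across Zan, a protein-coding gene on the opposite strand.

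The A-class receptors varied widely, both between groups and between libraries of a group. Epha3, which binds ephrin-A5, lies at chr16:63543534-63864175 on the minus strand. It was at 125, 221 and 185 TPM in palatal WT, 133, 176 and 206 TPM in palatal PI3K, 24.9, 24.0 and 14.2 TPM in the control and 9.69, 6.66 and 8.21 TPM in the labelled cKO. The 2 maxillary groups were far below the palatal ones, and every labelled cKO library was below every control library. Epha4, at chr1:77367185-77515088 on the minus strand, was at 57.8, 109 and 95.5 TPM in palatal WT, 62.1, 132 and 106 TPM in palatal PI3K, 82.2, 88.6 and 102 TPM in the control and 24.9, 31.8 and 43.1 TPM in the labelled cKO. The labelled cKO libraries lay below all 9 others. Epha7, a receptor of A-class ephrins that is made in several splice forms, was at 51.5, 84.3 and 69.4 TPM in palatal WT, 58.6, 98.1 and 111 TPM in palatal PI3K, 34.2, 37.4 and 28.9 TPM in the control and 21.7, 21.3 and 28.2 TPM in the labelled cKO. Its span holds 1 annotated antisense gene, Gm11915.

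All 3 A-class receptors were lowest in library 1 of palatal WT and in library 1 of palatal PI3K. Those are the 2 palatal libraries with the highest osteogenic and chondrogenic marker sums, 1773 and 1025 TPM, and the bone matrix gene Ibsp ranged from 0.0254 to 893 TPM within palatal WT. The part of those cells in the EphA values was not tested. Summed over the 3 genes, the EphA level was 234, 415 and 350.3 TPM in palatal WT, 254, 407 and 423 TPM in palatal PI3K, 141 to 149.95 TPM in the control and 56.3, 59.8 and 79.5 TPM in the labelled cKO. The sum over the 4 EphB genes moved less, from a group mean of 222 ± 16.7 TPM (SD, n = 3) in the labelled cKO to 301 ± 26.0 TPM (SD, n = 3) in palatal PI3K. All 8 ephrin genes of the mouse summed to a mean of 475 ± 7.83 TPM (SD, n = 3) in palatal WT and 354 ± 27.5 TPM in the control, and all 14 Eph genes to 664 ± 103 TPM and 421 ± 43.3 TPM (SD, n = 3 each).

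**Figure D2:**
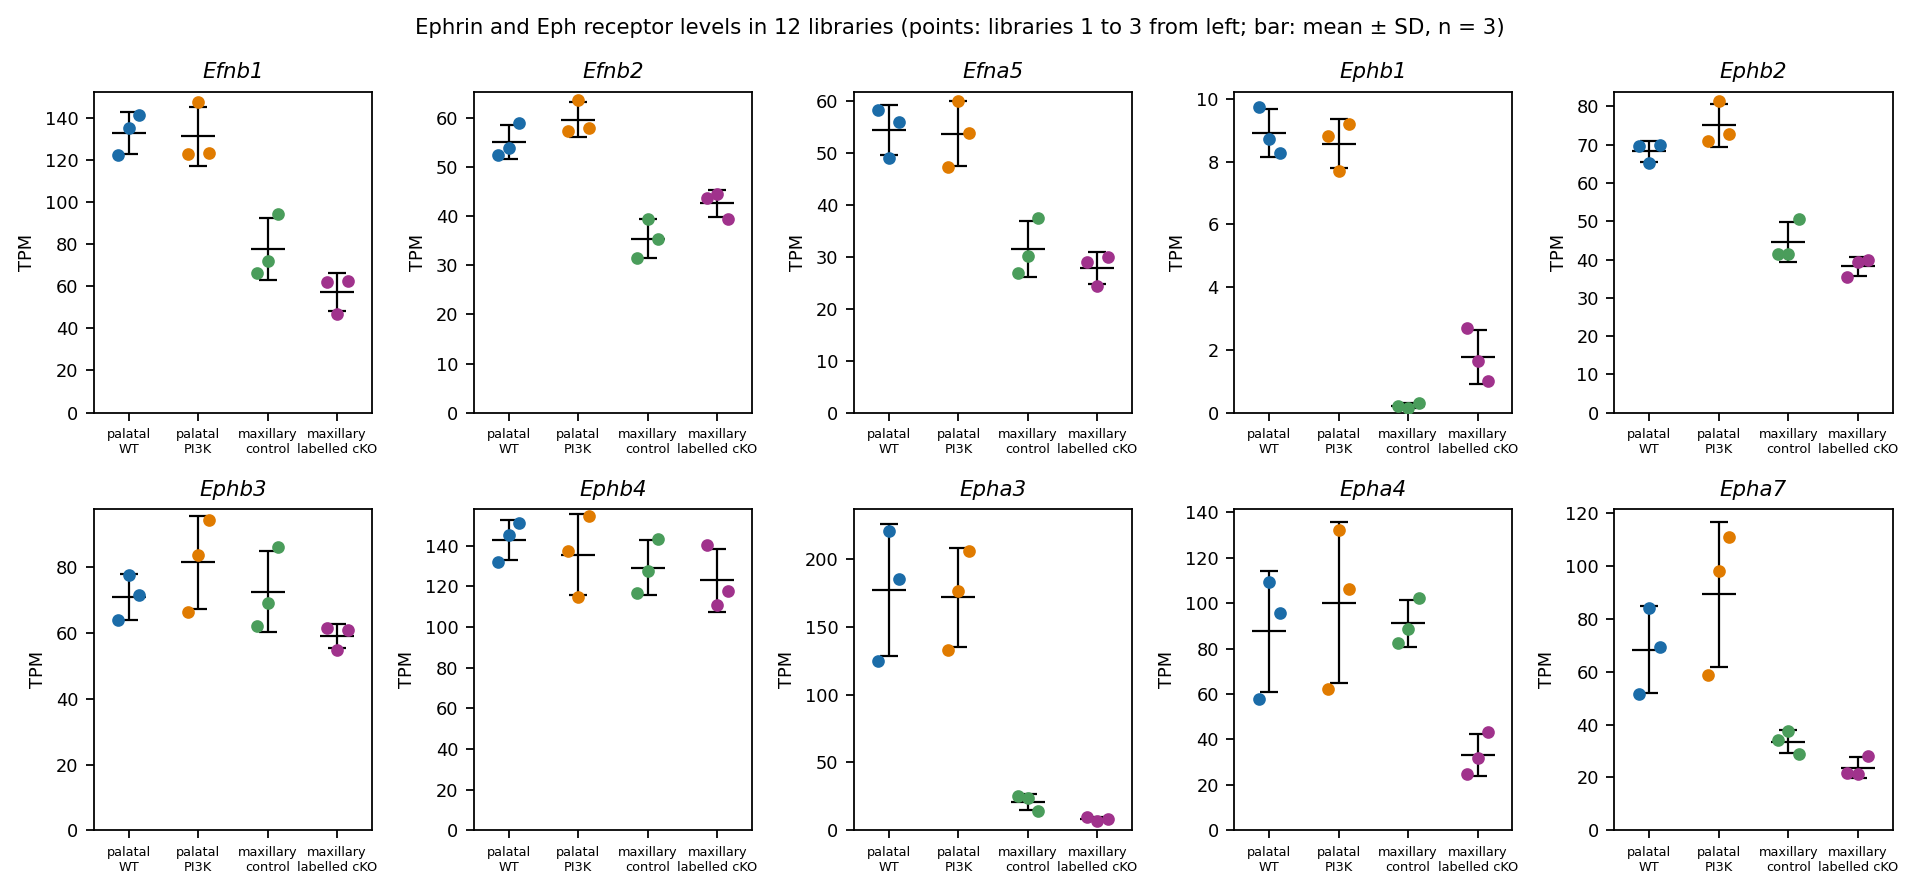
TPM of the 10 genes in each library, by group, with the mean and SD of 3 libraries as a black bar and whiskers. Ephb1 and Epha3 show high palatal and low maxillary levels, Ephb4 is level across all groups, and Epha4 drops in the labelled cKO libraries, from 82.2 to 102 TPM in the control to 24.9 to 43.1 TPM.

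Per transcript length, Epha3 was the most abundant of the 10 in both palatal groups, with a mean of 177 ± 48.7 TPM (SD, n = 3) in palatal WT. Its range overlapped that of Ephb4 at 143 ± 10.00 TPM, which in turn overlapped that of Efnb1 at 133 ± 9.77 TPM (SD, n = 3 each). Epha4, Ephb3, Epha7 and Ephb2 followed at means of 68.3 to 87.6 TPM, each overlapping the next, then Efnb2 and Efna5 at 55.1 and 54.4 TPM, and Ephb1 stood apart at the bottom at 8.90 TPM. In the maxillary control the order was different: Ephb4 stood apart at the top at 129 ± 13 TPM, followed by Epha4 at 91.0 ± 10.3 TPM (SD, n = 3 each), while Epha3 ranked the ninth at 21.0 TPM. In the labelled cKO, Ephb4 was again apart at the top at 123 ± 15.3 TPM (SD, n = 3), Epha4 ranked the sixth at 33.3 TPM, and its range overlapped those of Ephb2 and Efna5 beside it.

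None of the 10 genes differed between the palatal groups at a false discovery rate of 0.05 by edgeR's quasi-likelihood test with Benjamini-Hochberg adjustment, and the adjusted p was 0.9997 for every one. The comparison asks whether loss of PI3K binding by the receptor changes palatal RNA. Over the transcriptome, 0 of 16525 genes tested passed (0%), 354 had an unadjusted p under 0.05 (2.14%) and 1030 did not overlap between the groups (6.23%). Of the 10 genes, 0 had an unadjusted p under 0.05 and 0 had groups that did not overlap. DESeq2, another count test, called 5 genes, none of them among the 10. Log2 differences ran from -0.08 for Efna5 to 0.35 for Epha7, with a median of 0.00 against -0.01 over all genes tested. Their 95% intervals were narrow for Ephb2, from -0.16 to 0.18, and wide for Epha4, from -0.52 to 0.85. Intervals of that width do not show that the groups were alike.

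The 12 further ephrin and Eph genes and the partners of the pathway gave no call in the palatal comparison either. Among 11 further family genes tested, only Efnb3 had an unadjusted p under 0.05, against 2.14% of all genes tested. It was at 111, 110.03 and 104 CPM in palatal WT and 114, 128 and 141 CPM in palatal PI3K, a log2 difference of 0.24 ± 0.10 (SE, n = 3 against 3, edgeR adjusted p = 0.9997). All 3 palatal PI3K libraries were above the palatal WT libraries. Of 38 genes listed as partners of Eph signalling (among them adaptors, phosphatases, PDZ proteins and kinases), 0 passed and 0 had an unadjusted p under 0.05.

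In the maxillary process Epha4, Epha3 and Ephb1 had the largest differences of the 10, but none of the 10 passed the false discovery rate in the planned test. The comparison asks what Srsf3 deletion in neural crest does to maxillary RNA. Of 14254 genes tested, 12 passed (0.0842%), 8 higher (0.0561%) and 4 lower (0.0281%) in the labelled cKO, while 1746 had an unadjusted p under 0.05 (12.2%). Of the 10 genes, 7 had an unadjusted p under 0.05, 2 higher and 5 lower. In 6 of the 10 the groups did not overlap, against 18.1% of all genes tested, with Ephb1 higher (8.76% of all genes) and Efnb1, Ephb3, Epha3, Epha4 and Epha7 lower (9.37% of all genes). The median log2 difference of the 10 was -0.26, against 0.00 over all genes tested.

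Epha4 was at 267, 293 and 322 CPM in the control and 84.8, 101 and 143 CPM in the labelled cKO. Its lowest control library was well above its highest labelled cKO library. The log2 difference was -1.42 ± 0.19 (SE, n = 3 against 3), a 2.68-fold lower fitted level with a 95% interval of -1.86 to -0.98, and the edgeR Benjamini-Hochberg adjusted p was 0.07505. This call turned with the processing. The adjusted p was 0.001443 with no filter on low counts, 5.008e-10 with DESeq2, 0.04723 with all 12 libraries in the edgeR fit and 0.03324 with the presence of Y-linked transcripts as a covariate. Epha4 passed in 5 of 10 other settings, and its highest adjusted p was 0.1365 (limma, log2(TPM + 0.1)). The edgeR adjusted p was 0.03688 without library 3 of the labelled cKO, and 0.06008 to 0.3446 when any other single library was left out.

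Ephb1, at the other end, was at 0.624, 0.348 and 0.766 CPM in the control and 7.70, 4.67 and 2.79 CPM in the labelled cKO. Each labelled cKO library was above each control library. The log2 difference was 3.10 ± 0.49 (SE, n = 3 against 3, edgeR adjusted p = 0.1028), an 8.56-fold higher fitted level, and its interval ran from 1.95 to 4.25. The adjusted p was 0.008315 with no filter, 2.568e-06 with DESeq2 and 0.005805 with all 12 libraries. Ephb1 passed in only those 3 of 10 other settings, and its highest adjusted p was 0.1997 (limma, log2(TPM + 1)). With any single library left out it was 0.09759 to 0.4857 (edgeR). On log2(TPM + 1), where the pseudocount presses on low genes, the difference was 1.14.

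Epha3 was at 74.0, 70.8 and 38.2 CPM in the control and 30.0, 18.0 and 25.5 CPM in the labelled cKO. Control library 3 lay nearer to the labelled cKO than to its own group. The log2 difference was -1.32 ± 0.28 (SE, n = 3 against 3, edgeR adjusted p = 0.1813), and the adjusted p was 0.02157 with no filter and 0.0003571 with DESeq2. Epha3 passed in only those 2 of 10 other settings, and its highest adjusted p was 0.2327 (limma, log2(TPM + 0.1)). With any single library left out it was 0.1052 to 0.6782 (edgeR). Epha7 was at 111.5, 111.5 and 83.7 CPM in the control and 71.8, 68.3 and 83.7 CPM in the labelled cKO, so that its groups were apart only beyond the printed digits. Its log2 difference was -0.45 ± 0.14 (SE, n = 3 against 3, edgeR adjusted p = 0.302). The directions of Epha3, Epha4 and Ephb1 were the same in every setting tried.

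**Figure D3:**
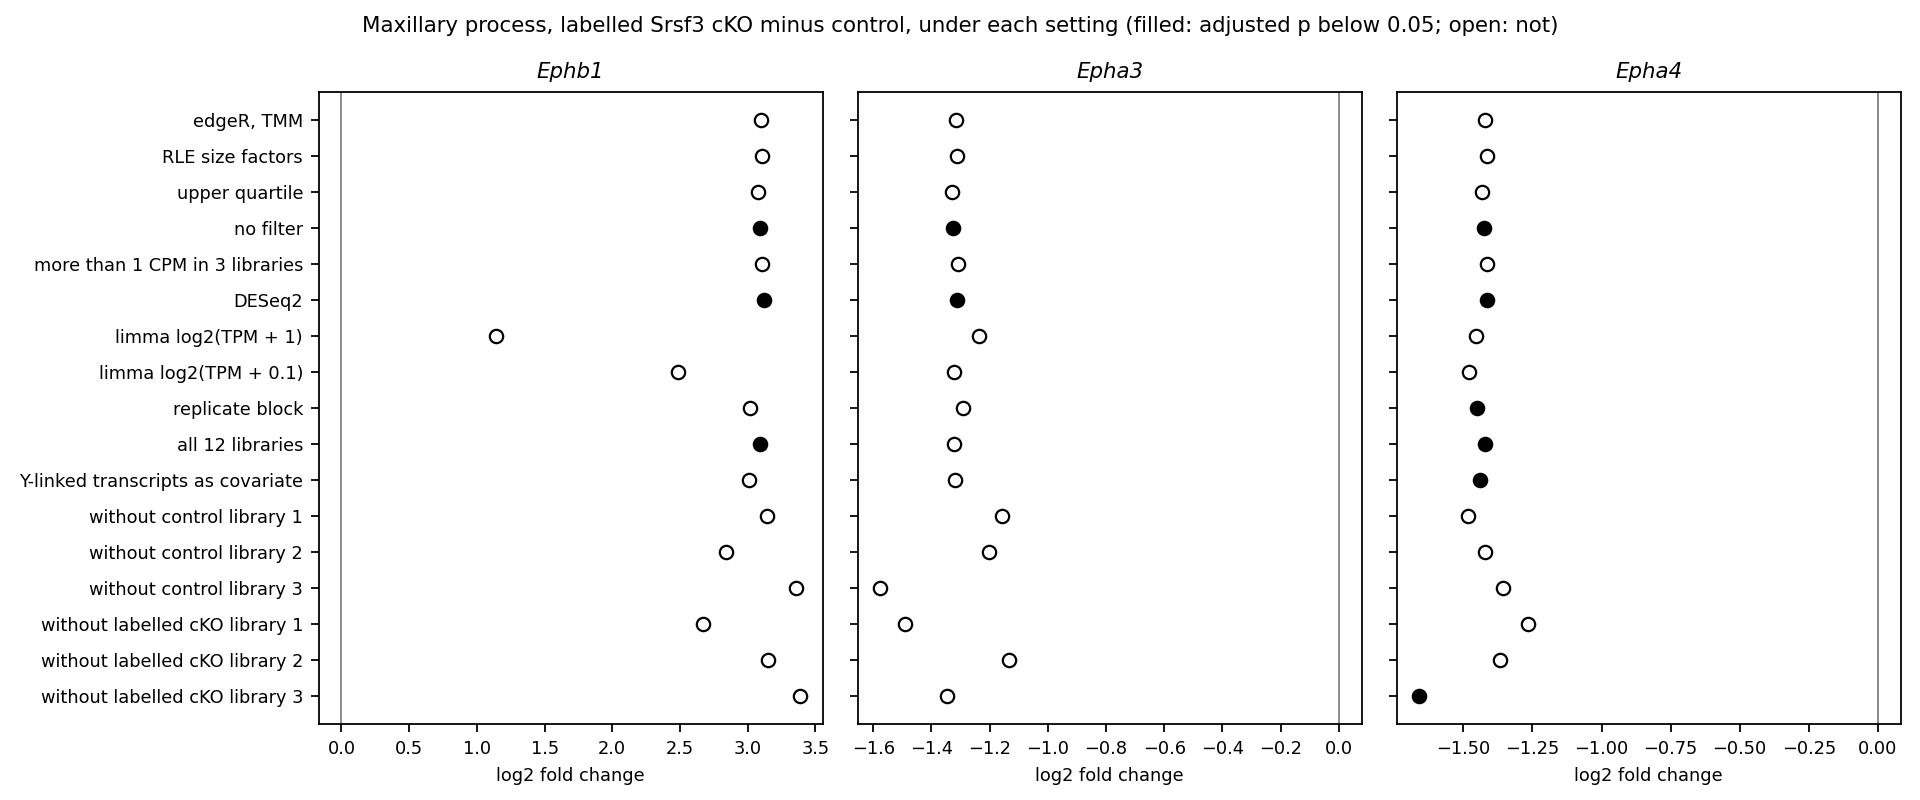
Log2 difference between labelled Srsf3 cKO and control for Ephb1, Epha3 and Epha4 under each processing setting and with each library left out, filled where the adjusted p was below 0.05. Ephb1 lies right of 0 in every setting and Epha3 and Epha4 left of 0, while filled points appear with no filter and with DESeq2 for all 3 genes and in few other settings.

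The ephrins and the remaining B-class receptors differed less. Efnb1 had a log2 difference of -0.38 and Efnb2 of 0.27 (edgeR adjusted p = 0.381 and 0.385), Efna5 of -0.05, Ephb2 of -0.28, Ephb3 of -0.25 and Ephb4 of -0.02. The 95% interval of Ephb4 ran from -0.29 to 0.25. As Efnb2 and Ephb4 also mark arterial and venous endothelium, the endothelial markers are given beside them. Those 12 markers summed to 286 to 305 TPM in the control and 699, 415 and 375 TPM in the labelled cKO, with none at 0. Of the 12, 11 were higher without overlap, against 8.76% of all genes tested. None of the 12 passed the threshold (smallest edgeR adjusted p = 0.1976). Over the same libraries the mesenchyme markers summed to 3312 to 4159 TPM in the control and 2349 to 3141 TPM in the labelled cKO, and the neuron and glia markers to 59.3, 90.1 and 179 TPM against 62.7, 43.4 and 53.1 TPM. The ectoderm markers summed to 1.91 to 7.91 TPM in the control and 9.52 to 18.9 TPM in the labelled cKO, with Krt6a at 0 in both groups. Of these, 8 of 8 tested had a log2 difference above 0, and 0 passed the threshold. An unadjusted p under 0.05 was found for 5, against 12.2% of all genes tested. The macrophage markers summed to 26.0 to 30.7 TPM in the control and 35.1 to 56.7 TPM in the labelled cKO, 8 of 8 tested with a log2 difference above 0, 1 with an unadjusted p under 0.05 and 0 past the threshold, with none at 0. The part of these cells in the Eph differences was not tested. Control library 3, with the highest neuron and glia sum, and labelled cKO library 1, with the highest endothelial sum, were also left out together, an alternative chosen after seeing the data. Without them the log2 difference was -1.20 for Epha4 (edgeR adjusted p = 0.04004), -1.75 for Epha3 (edgeR adjusted p = 0.01316) and 2.94 for Ephb1 (edgeR adjusted p = 0.08031). For Epha3, control library 3 was the lowest of its group (38.2 CPM) and labelled cKO library 1 the highest of its own (30.0 CPM). Leaving both out widens the Epha3 difference by construction, so that pass cannot serve as a test.

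Among 10 further family genes tested in the maxillary process none passed. An unadjusted p under 0.05 was found for 3 of them, against 12.2% of all genes tested. Epha8, an A-class receptor, was at 16.3, 18.1 and 16.0 CPM in the control and 1.39, 0.256 and 4.05 CPM in the labelled cKO. Its groups were far apart, but its libraries within the labelled cKO also spread widely. The log2 difference was -3.19 ± 0.73 (SE, n = 3 against 3, edgeR adjusted p = 0.2141), and the adjusted p was 0.02728 with no filter and 0.03938 with DESeq2. Epha8 passed in only those 2 of 10 other settings. With any single library left out the adjusted p was 0.1122 to 0.6951 (edgeR). Efna1, an ephrin of blood vessels and epithelia, had a log2 difference of 0.84 and Ephb6, a receptor without kinase activity, of -0.68 (edgeR adjusted p = 0.301 and 0.372). Of 36 pathway partners tested, 0 passed, and their median log2 difference was 0.01. At an unadjusted p under 0.05, 5 were higher and 3 lower, with 12.2% of all genes tested under it in either direction.

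Between the tissues, palatal WT at E13.5 was compared with the maxillary control at E11.5. These are the same control libraries that the 2 mutant comparisons used. Tissue, age, the floxed Srsf3 allele, sequencing lane and deposited table differ together between these groups, so their parts cannot be told apart. Ectoderm markers differed as well, summing to 735 to 949 TPM in palatal WT and 1.91 to 7.91 TPM in the maxillary control. The part of ectoderm in the ephrin and Eph differences between these groups was not tested. Of 15752 genes tested, 7965 passed (50.6%), 4274 higher in palatal WT (27.1%) and 3691 lower (23.4%). On log2(TPM + 1), where the median over all genes moved from 0.03 to 0.16, the split was 4781 higher and 1966 lower.

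Of the 10 genes, 7 passed, all of them higher in palatal WT and all 7 without overlap between groups, where 33.2% of all genes were higher without overlap. Ephb1 rose most, by 5.16 ± 0.26 on the log2 scale (SE, n = 3 against 3, edgeR adjusted p = 2.827e-05), a 35.7-fold fitted difference, from 0.660, 0.364 and 0.785 CPM in the control to 25.2, 22.3 and 18.8 CPM. Epha3 rose by 2.72 ± 0.29 (SE, n = 3 against 3, edgeR adjusted p = 0.0004638), a 6.58-fold fitted difference, from 78.2, 74.1 and 39.2 CPM to 311, 512 and 435 CPM. The lowest palatal library of either gene was several-fold above its highest control library.

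The other five calls were smaller. Epha7 rose by 0.71 ± 0.17, Efnb1 by 0.63 ± 0.11, Ephb2 by 0.56 ± 0.11, Efna5 by 0.48 ± 0.13 and Efnb2 by 0.48 ± 0.10 on the log2 scale (SE, n = 3 against 3). Their edgeR adjusted p-values were 0.01080, 0.003041, 0.004658, 0.01509 and 0.006796 in that order. Efna5 had an adjusted p of 0.05577 without palatal WT library 3 and 0.05547 without control library 2, and the other 6 stayed past the threshold with each library left out. Ephb3, Ephb4 and Epha4 did not pass, at -0.18, -0.01 and -0.21, with 95% intervals of -0.43 to 0.08, -0.22 to 0.20 and -0.65 to 0.22. The sign for Ephb4 turned under other scalings, to 0.05 with the upper quartile and 0.15 on log2(TPM + 1). Without palatal WT library 1 and control library 3 together, an alternative chosen after seeing the data, 7 of the 10 passed. The median of the 10 was 0.52, against 0.03 over all genes tested.

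**Figure D4:**
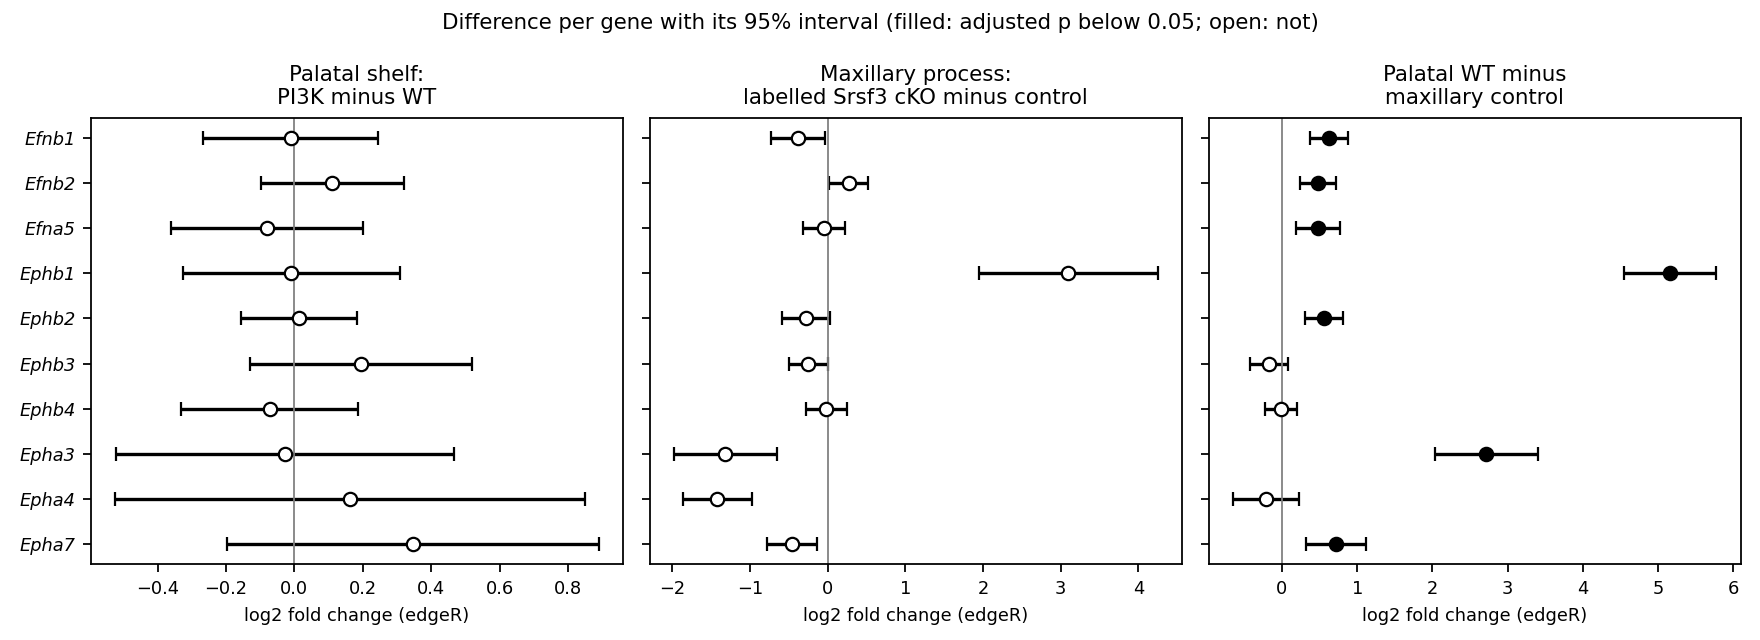
Log2 fold change of each gene with its 95% interval in the 3 comparisons, filled where the adjusted p was below 0.05. All intervals cross 0 in the palatal shelf, Epha3, Epha4 and Ephb1 lie furthest from 0 in the maxillary process without passing, and 7 genes pass between the tissues. Horizontal scales differ between panels.

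Of 10 further family genes tested between the tissues, 5 were higher in palatal WT and 2 lower past the threshold. Over all genes tested, 27.1% were higher and 23.4% lower. Epha1 rose by 2.95, Efna3 by 2.35, Epha2 by 1.21, Efna1 by 1.20 and Efnb3 by 0.29 on the log2 scale, and Epha8 fell by 2.76 and Efna2 by 0.71. Epha1, Epha2 and Efna1 are known from epithelia, and all 14 ectoderm markers also passed as higher in palatal WT, 735 to 949 TPM against 1.91 to 7.91 TPM in sum. The part of ectoderm in these values was not tested. Efnb3 lost its call with all 12 libraries (edgeR adjusted p = 0.08236), with the replicate number as a block (0.06163) and with 5 of the 6 libraries left out in turn, and Epha8 did so without palatal WT library 3 or control library 2. Epha5, Efna4 and Ephb6 did not pass, at 1.68, -0.07 and -0.07. Epha5 was at 0.792, 2.30 and 9.69 CPM in the control and 14.9, 10.8 and 16.5 CPM in palatal WT. It passed with no filter (edgeR adjusted p = 0.0429), on log2(TPM + 1) and log2(TPM + 0.1) (limma adjusted p = 0.02215 and 0.0474) and with the replicate number as a block, at 2.18 (edgeR adjusted p = 0.03569). Without control library 3, the highest of its group, its log2 difference was 3.17 (edgeR adjusted p = 0.001485). The same omission turned Ephb6 to 0.21.

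Of 37 pathway partners tested between the tissues, 7 were higher and 12 lower past the threshold, with a median log2 difference of -0.09. Over all genes tested in this comparison 27.1% were higher and 23.4% lower, 50.6% in all, so the calls of the partners are given as values only. Among those higher in palatal WT were Ptpro, a phosphatase of Eph receptors (1.78), Rgs3, which binds B-class ephrins (0.62), and the PDZ proteins Pick1 (0.55) and Grip1 (0.48). Ptpro was below 1 TPM in all libraries and lost its call with DESeq2, on both log2 TPM scales, with the replicate number as a block, and with palatal WT library 1 or 2 or control library 1 or 3 left out. Grip1 lost its call without palatal WT library 3 (edgeR adjusted p = 0.07628), with the replicate number as a block (0.05882) and with all 12 libraries (0.06092). Among those lower were Chn1, the Rac inhibitor alpha-chimaerin that acts downstream of EphA4 (-1.25), the adaptor Nck2 (-0.62), the kinase Pak1 (-0.55), the phosphatase Acp1 (-0.50) and Itsn1, an exchange factor for Cdc42 (-0.47). Acp1 lost its call on log2(TPM + 1), at -0.27 (limma adjusted p = 0.06043), and on log2(TPM + 0.1), at -0.27 (0.07166). Chn1 was at 76.3, 87.0 and 90.5 TPM in the control and 35.2, 44.6 and 35.2 TPM in palatal WT.

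The estimated count divided by TPM gives the effective length Salmon assigned to a gene, which moves with its mix of long and short transcripts. It did not differ for any of the 10 genes between the palatal groups (1 of 12907 genes passed, 0.00775%, and that gene was Pdgfra) or, for the 9 tested, between the maxillary groups (1 of 11002, 0.00909%). On the log2 scale, shifts ran from -0.12 to 0.06 for the 10 genes between the palatal groups. Between the maxillary groups they ran from -0.10 to 0.09 for the 9 tested, which leave out Ephb1. The shift of Pdgfra was -0.58 (limma adjusted p = 0.002246), a length ratio of 0.669. That call was lost with the replicate number as a block and without palatal WT library 1 or any single palatal PI3K library. No gene passed in those settings. Between the tissues 1008 of 11093 genes passed (9.09%), among them Epha3 as 1 of 9 genes tested. The centred log2 effective length of Epha3 was 0.84, 0.77 and 0.80 in palatal WT and 0.98, 0.96 and 0.93 in the control, so each palatal library had a shorter one. The shift was -0.16 ± 0.02 (SE, n = 3 against 3, limma adjusted p = 0.03513), a length ratio of 0.898. Leaving out any single library ended the call, with an adjusted p of 0.06835 to 0.1034. Efna5 and Epha7 shifted by -0.15 and -0.13 without passing (limma adjusted p = 0.05993 and 0.1612).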

How the data were processed

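Groups came from the labels. Estimated counts and TPM per gene were deposited by the authors in separate tables for each tissue. The submitters' processing notes name STAR 2.7.0, Salmon 1.1.0, DESeq2 1.28.1 and build mm10, without their roles, and the strand setting and transcript annotation are not given in the sources used here. The names of the deposited tables point to Salmon for both units. TPM divides by transcript length and fixes each library's sum. Symbols and positions came from GENCODE M21 (GRCm38), in which 53355 of 53392 identifiers matched without their version.

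Estimated counts were rounded and tested in R 4.3.3 with edgeR 4.0.16 (quasi-likelihood F-test, TMM, default filter, Benjamini-Hochberg over all genes tested), each comparison on its own 6 libraries. CPM values are scaled within each fit, so the control differs slightly between fits. Effective length was tested with limma 3.58.1 on genes with at least 50 counts in all 6 libraries. DESeq2 1.42.0, other normalisations, filters and units, a replicate block, and leaving out libraries were the alternatives. The scripts were tested on simulated data. Every pair of replicates differed by more than sampling noise. P-values set each group difference against the spread between these libraries, which the tests estimate with help from all genes.

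The 10 genes and all lists were chosen with earlier results of these data known. Named were the 10 genes, other family genes with a mean of at least 5 TPM in a group or past the threshold, partners past the threshold (up to 5 per direction) and the 3 most abundant, Srsf3, Pdgfra, markers, and the 3 genes most like Efnb1, Efnb2 and Ephb2. Some genes that this rule names among the partners are not reported here.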

Additional observations from a re-analysis of the deposited data

How the results depend on the processing

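Genes called between the maxillary groups numbered 12, and 143 with no filter, 356 with DESeq2, 105 with all 12 libraries, 56 with the Y-linked covariate, 36 at a false discovery rate of 0.1, 7 on log2(TPM + 1) (6 higher, 1 lower), and 2 to 29 with 1 library left out. Of the 10 genes, 0 were called, and 3 with no filter, 3 with DESeq2, 2 with all 12 libraries, 1 with the Y-linked covariate, 1 at a rate of 0.1, and 0 to 1 with 1 library left out. Without control library 3 and labelled cKO library 1 together, an alternative chosen after seeing the data, 102 genes and 2 of the 10 were called. In the palatal comparison DESeq2 called 5 genes and edgeR 0. Between the tissues 6 or 7 of the 10 were called in every setting.

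With the replicate number as a block, edgeR called 40 genes between the maxillary groups, of the 10 only Epha4 (adjusted p = 0.02538), and effective length gave 0 calls in all 3 comparisons, Epha3 included. Between the tissues the block gave a call to Epha5 (adjusted p = 0.03569) and took those of Efnb3 (0.06163), Ptpro (0.08601) and Grip1 (0.05882). With so few libraries a group, whether the numbers pair the libraries could not be settled. Deviations of same-numbered libraries correlated at 0.551, 0.206 and -0.237 in the palatal comparison. The values were 0.0945, 0.121 and 0.252 in the maxillary, all positive, and -0.177, 0.0741 and -0.0407 in the tissue comparison. In none of the 3 comparisons did every library correlate best with its own number.

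Effective length calls without centring, which leaves library depth in the value by construction, were 31 in the palatal, 4 in the maxillary and 11048 in the tissue comparison, 9 of the 10 genes among them, and Efna5, Epha3 and Epha7 then turned to 0.64, 0.63 and 0.66. A count minimum of 10 gave 3 calls in the maxillary comparison. With 1 library left out, calls were 0 to 1, 0 to 5 and 0 to 569, and 0 to 0 of the 10 in the tissue comparison.

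Log2 differences near 0 changed sign. In the palatal comparison, with 1 library left out, Efnb1 ran from -0.12 to 0.048, Ephb1 ran from -0.10 to 0.094, Ephb2 ran from -0.015 to 0.043, Ephb4 ran from -0.16 to 0.025, Epha3 ran from -0.20 to 0.14, Epha4 ran from -0.099 to 0.40 and Pdgfra ran from -0.076 to 0.084. In the maxillary comparison, with 1 library left out, Efna5 ran from -0.13 to 0.040, Ephb4 ran from -0.13 to 0.047 and Srsf3 ran from -0.075 to 0.17. Srsf3 was at -0.16 on log2(TPM + 1) and -0.16 on log2(TPM + 0.1), and Efna5 at 0.048 without control library 3 and labelled cKO library 1. Between the tissues, Ephb4 was at 0.051 with the upper quartile, 0.014 with no filter, 0.017 with more than 1 CPM in 3 libraries, 0.15 on log2(TPM + 1) and 0.15 on log2(TPM + 0.1). Efna4 was at 0.056 and 0.057 and Ephb6 at 0.010 and 0.016 on those TPM scales. With 1 library left out, Ephb4 ran from -0.055 to 0.050, Epha4 ran from -0.40 to -0.0090, Efna4 ran from -0.16 to 0.018 and Ephb6 ran from -0.22 to 0.21. Without palatal WT library 1 and control library 3, Ephb4 was at 0.066, Epha4 at 0.030 and Ephb6 at 0.25. At 3 libraries a group, differences as small as these were not resolved.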

Other observations

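The genes whose levels ran most closely with 3 of the 10 were found by Pearson's r of log2(CPM + 1) over the 12 libraries, among 11435 genes. The 12 points share tissue, table and depth by group, so r is a description. Efnb1 ran closest to Tead3 (r = 0.984), Ppp1r26 (0.983) and Nlgn2 (0.983). Ephb2 ran closest to Nfix (0.991), Sept8 (0.988) and Tbc1d24 (0.987). Efnb2 ran closest to Itga2 (0.948), Prkch (0.946) and F11r (0.941).

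Of the 45 pairs among the 10 genes themselves, a few are given as examples. Epha3 and Epha7 had an r of 0.945 over the libraries and of 0.808 in deviations from group means. On the same measures Epha4 and Epha7 had 0.699 and 0.724, Ephb3 and Epha4 0.73 and 0.732, and Efnb1 and Ephb2 0.931 and 0.281. Ephb2 and Epha3 had an r of 0.902 over the libraries and of -0.749 in deviations from group means.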
